A study of Mus musculus with 9 samples.

Results

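The mitochondrial respiratory chain was examined here through 57 nuclear genes for core and common subunits of complexes I to V and for cytochrome c, taken from a list arranged by complex. A gene counted as measured if it was the single symbol of at least 1 probe set in the deposited table, and where it had several, the one brightest on average over the arrays was used. By that rule 46 of the 57 genes were measured, out of 14440 genes in the table, and all 46 reached the intensity floor of every one of the 9 arrays. The floor was the 40th percentile of an array. The other 11 genes (Ndufa1, Ndufb4, Ndufb5, Ndufs3, Ndufs5, Ndufs6, Uqcrc2, Uqcrb, Cox7b, Cox7c and Atp5f1) were not analysed here. Tissue-specific isoforms of complex IV, such as Cox6a2 and Cox7a1, were not part of the list.

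The samples were 5 tumours and 4 pieces of skeletal muscle from mice, each hybridised to 1 Affymetrix array. The tumours came from mice called MYF-5 CRE/SSM2 in the labels, where SSM2 is not explained, a model of synovial sarcoma, a soft tissue tumour defined by a fusion of the SYT and SSX genes. Cre recombinase driven by Myf5, a gene of the skeletal muscle lineage, restricts the model to cells with a history of Myf5 expression. Tumour 1 here is the one titled CC23, tumours 2 and 3 are those titled CC17-B and CC17-A, which share a name, and tumours 4 and 5 are SSM5 and SSM4. The muscles, titled as wild type, are numbered 1 to 4: muscles 1 and 4 came from the hind limb, muscle 2 from between the ribs (intercostal) and muscle 3 from the forelimb. No age, sex or treatment is given, and nothing says that the samples of a group came from separate animals. The p-values therefore measure the spread between these samples, and genotype and tissue cannot be told apart. The 3′ to 5′ ratio of Actb was 12.7, 2.90, 1.99, 4.54 and 2.04 in tumours 1 to 5. In the muscles it was 1.62 to 1.93. Muscle 2 held markers of brown fat. Without tumour 1 all 46 members were lower with a median log2 fold change of −1.87, and without muscle 2 with one of −1.86. All 46 were also lower without tumour 2 (median −1.95) and without tumour 4 (median −1.86).

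The respiratory chain sits in the inner mitochondrial membrane and turns the oxidation of nutrients into a proton gradient. Complexes I and II pass electrons to ubiquinone, complex III passes them on to cytochrome c, and complex IV passes them to oxygen. Complexes I, III and IV pump protons, and complex V, the ATP synthase, uses the gradient to make ATP. Skeletal muscle fibres, above all the slow oxidative ones, are rich in this machinery. Most subunits are nuclear genes, many of whose promoters are known to be bound by NRF1, by the ETS factor GABPA and by YY1, with estrogen-related receptors as further regulators.

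The members, scattered over 16 chromosomes, were all lower in the tumours than in muscle. The promoters of a few are shown with the motifs of those factors in capitals. RefSeq windows of 300 bases (250 before and 50 after the transcription start, build GRCm38.p6) matched 38 of the 46 members. The NRF1 motif (GCGCA, any base, then GCGC), searched on both strands like the motifs that follow, was held by 9 of these 38 (23.7%), against 10.9% of the tested genes with a window and 4.60% of all windows. Sdha, the flavoprotein of complex II, held 3 copies before its start, and the windows of Ndufa8 and Atp5c1 held 1 each. The ETS motif CCGGAAGT was held by 2 members (5.26%, against 8.36% of tested genes and 3.89% of all windows), 1 of them Uqcrh. The 250 bases before the start of these 4 genes read as follows, 5′ to 3′ on the strand of the gene.
Sdha, chr13:74350241-74350490, minus strand: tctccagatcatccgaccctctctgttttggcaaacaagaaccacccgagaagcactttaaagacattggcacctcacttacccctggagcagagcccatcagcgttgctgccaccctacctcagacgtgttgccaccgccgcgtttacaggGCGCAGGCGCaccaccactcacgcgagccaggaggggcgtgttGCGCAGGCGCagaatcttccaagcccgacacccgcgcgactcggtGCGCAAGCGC
Ndufa8, chr2:36049339-36049588, minus strand: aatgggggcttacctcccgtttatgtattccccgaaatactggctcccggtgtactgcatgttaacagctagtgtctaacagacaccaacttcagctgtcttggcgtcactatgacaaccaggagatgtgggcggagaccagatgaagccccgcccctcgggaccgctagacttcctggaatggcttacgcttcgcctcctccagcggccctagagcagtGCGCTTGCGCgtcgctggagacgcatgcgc
Atp5c1, chr2:10080433-10080682, minus strand: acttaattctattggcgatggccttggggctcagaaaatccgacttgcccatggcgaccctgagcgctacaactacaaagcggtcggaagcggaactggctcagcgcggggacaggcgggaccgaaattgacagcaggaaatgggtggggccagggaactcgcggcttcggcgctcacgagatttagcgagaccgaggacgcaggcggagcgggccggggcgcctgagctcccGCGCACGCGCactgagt
Uqcrh, chr4:116075071-116075320, minus strand: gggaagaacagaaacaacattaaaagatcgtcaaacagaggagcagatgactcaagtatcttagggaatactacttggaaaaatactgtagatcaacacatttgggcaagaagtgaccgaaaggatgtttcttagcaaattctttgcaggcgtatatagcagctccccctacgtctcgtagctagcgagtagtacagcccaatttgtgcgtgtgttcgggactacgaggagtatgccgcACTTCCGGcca

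The YY1 motif AAGATGGC was held by 7 of the 38 members (18.4%), against 5.05% of tested genes and 2.75% of all windows. In 6 of them, all complex I subunits, it lay on the strand of the gene and began 23 to 39 bases after the transcription start. The motif contains the letters of a start codon, and whether a match spans the start codon was not examined. The 22 bases around each of the 6 matches are given with the motif in capitals.
Ndufc1, chr3:51408922-51408943, minus strand: cctgcggaacAAGATGGCgccg
Ndufa9, chr6:126849104-126849125, minus strand: attgtgggagAAGATGGCggcc
Ndufa3, chr7:3617385-3617406, plus strand: cgccaagaacAAGATGGCcggg
Ndufs7, chr10:80249463-80249484, plus strand: ggccgaggccAAGATGGCggcg
Ndufs4, chr13:114388048-114388069, minus strand: tgcctacaggAAGATGGCggcg
Ndufb8, chr19:44555393-44555414, minus strand: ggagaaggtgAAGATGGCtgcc

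The estrogen-related receptor motif TCAAGGTCA was in 1 member, Sdhd (2.63%, against 0.327% of tested genes and 0.423% of all windows). Sdhd and Atp5h each held an NRF1 motif and 1 other, without overlap. A match is a description of the letters in the window. No binding was measured, and the 46 genes were all lower in the tumours whether they held a motif (17 members) or not.

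All 46 measured subunits fell in the tumours. Levels are intensities scaled to a common trimmed mean, and tumour was set against muscle with limma over 10646 genes, where 48.1% were called at an adjusted p under 0.05, 18.0% lower and 30.1% higher. The 46 falls ran from 1.9-fold (Atp5d) to 7.83-fold (Uqcrfs1), with a median log2 fold change of −1.86 or 3.64-fold, beside a median of 0.23 over all genes tested. For 45 members the fall was at least 2-fold, against 13.3% of all genes tested. In 43 members every tumour lay below every muscle, against 15.2% of all genes tested. The exceptions were Ndufa2, Ndufa5 and Atp5h, where tumour 1 alone reached into the range of the muscles. In bulk tissue, fewer cells of a type and less RNA per cell cannot be told apart.

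**Figure D1:**
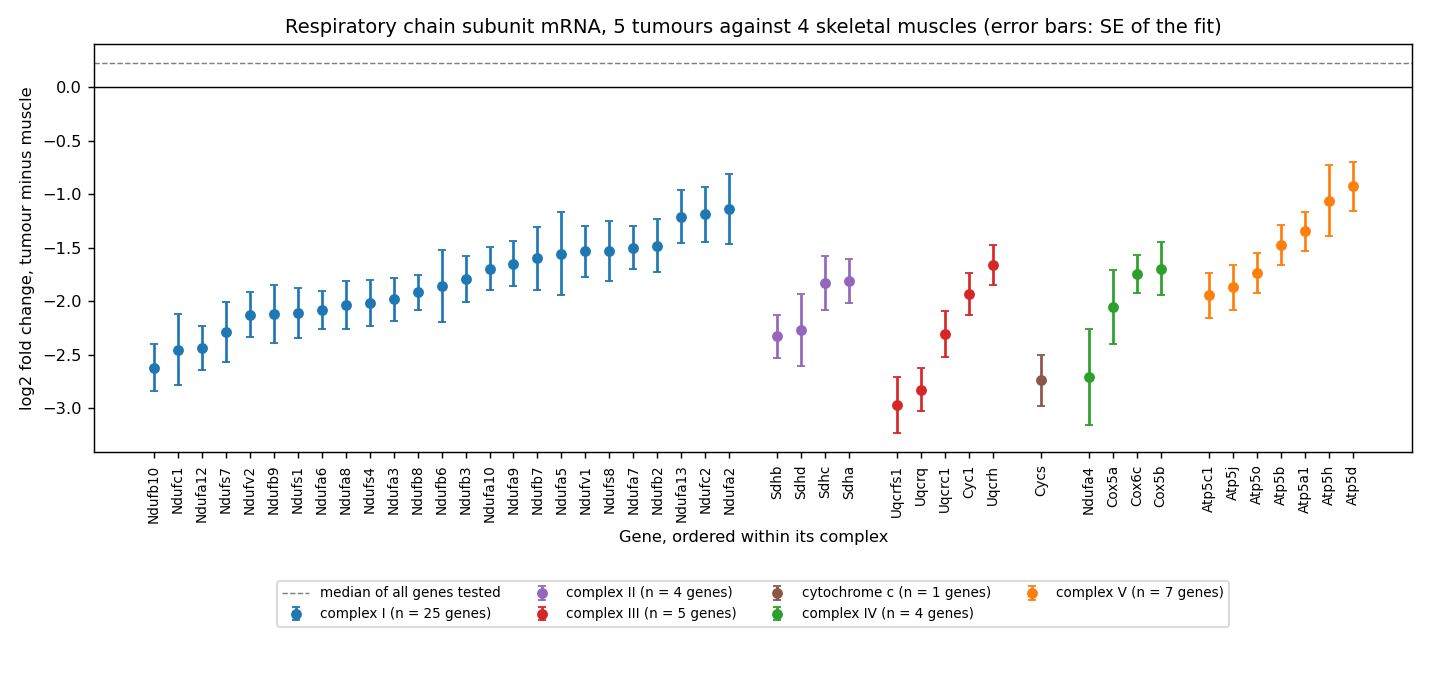
Log2 fold change of tumour minus muscle (vertical axis) for the 46 measured subunits, ordered within their complex, with the standard error of the fit as bars and the median of all genes tested as a dashed line. All 46 lie below 0, from −2.97 for Uqcrfs1 to −0.92 for Atp5d.

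Complex I, the NADH dehydrogenase that feeds electrons from NADH into the chain, had 25 measured subunits, all lower, with a median of −1.86. Ndufb10, an accessory subunit of its membrane arm, read 23102, 19719.8, 23774 and 21991 in muscles 1 to 4 and 5188, 3225, 2618, 3266 and 4119 in tumours 1 to 5. The groups were far apart, at 3683 ± 996 against 22147 ± 1777 (mean ± SD, n = 5 and 4; log2 fold change −2.62, SE 0.22, adjusted p = 1.1e-05 by limma with Benjamini-Hochberg adjustment, as for the adjusted p-values that follow). This was a fall of 6.14-fold, the largest in complex I. Ndufc1, a small membrane-arm subunit, read 40174, 27087, 40912 and 40715 in the muscles and 11677, 10531, 4369.9, 4539 and 5525 in the tumours (log2 fold change −2.45, SE 0.33, adjusted p = 0.000153). Its low muscle was muscle 2, the intercostal one, and tumours 1 and 2 stood about level with each other and above the rest. Ndufa12, an accessory subunit of the peripheral arm, read 36847, 27837, 38597 and 42423 in the muscles and 8698, 6499.8, 6941, 5299 and 6169 in the tumours (log2 fold change −2.44, SE 0.21, adjusted p = 1.2e-05), and its highest tumour was within 1.64-fold of its lowest.

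The smallest falls in complex I were those of Ndufa2 and Ndufc2. Ndufa2, an accessory subunit of the NADH-oxidising end, read 25635, 16846, 20975 and 24964 in the muscles and 21869, 10662, 7550.0, 7031 and 7696 in the tumours (log2 fold change −1.14, SE 0.33, adjusted p = 0.0146). Tumour 1 lay above muscles 2 and 3, while tumours 2 to 5 lay below every muscle. Ndufc2, a membrane-arm subunit, read 29888, 24965, 31341 and 32104 in the muscles and 18774, 17981, 11419, 10286 and 9055 in the tumours (log2 fold change −1.19, SE 0.26, adjusted p = 0.00295), with no overlap. Ndufa5, an accessory subunit of the peripheral arm, read 27136, 21713, 29265 and 27283 in the muscles and 23054, 11767, 6101, 5841 and 5810.1 in the tumours (log2 fold change −1.55, SE 0.39, adjusted p = 0.00714). Here tumour 1 was again in the range of the muscles and the other 4 tumours were far below it.

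Complex I is assembled from modules, and the measured subunits of each were described apart. The 8 subunits of the N module, which oxidises NADH, had a median of −2.05. It holds the flavoprotein Ndufv1 (−1.53), its partner Ndufv2 (−2.13) and the large iron-sulfur subunit Ndufs1 (−2.11). The 4 subunits of the Q module, which reduces ubiquinone, had a median of −1.60, among them the iron-sulfur subunits Ndufs7 (−2.28) and Ndufs8 (−1.53). In the membrane arm, the 6 proximal subunits had a median of −1.84 and the 7 distal subunits one of −1.86. Each module held subunits with falls below and above 3.64-fold, the median of all 46. Differences between modules were not tested.

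Complex II, the succinate dehydrogenase that links the citric acid cycle to the chain, was measured in all its 4 subunits, and each was lower with no overlap. Sdha, which carries the flavin, read 13986, 11982, 15466 and 13499 in the muscles and 4153, 3517, 2829.8, 4264 and 5037 in the tumours (log2 fold change −1.81, SE 0.20, adjusted p = 4.9e-05). Sdhb, which carries the iron-sulfur clusters, read 24826, 32732, 30112 and 26876 in the muscles and 6123, 6623, 4857, 4351 and 6789 in the tumours (log2 fold change −2.33, SE 0.20, adjusted p = 1.2e-05). The highest tumour was 1.78-fold above the lowest for Sdha and 1.56-fold for Sdhb. The membrane anchors were more spread, at 2.38-fold for Sdhc and 3.83-fold for Sdhd. Sdhc read 7898, 8771, 8862 and 6952 in the muscles and 1242, 2333, 2529, 2949 and 2732 in the tumours (log2 fold change −1.83, SE 0.25, adjusted p = 0.00018), and Sdhd read 8649.7, 10610.1, 8486 and 7656 and 891, 1391, 1824, 2509 and 3409.9 (log2 fold change −2.27, SE 0.34, adjusted p = 0.000295). For both anchors tumour 1 was the lowest on these probe sets. On a second probe set of Sdhd the log2 differences from muscle were −1.48, −1.37, −1.65, −2.25 and −2.23 in tumours 1 to 5. A second probe set of Sdha, less bright, gave a smaller difference of −1.03. It took the place of the first without muscle 1, 3 or 4 and under 2 of the scalings tried. Without those muscles the fold change was −1.10, −1.04 and −1.14 (adjusted p = 0.0186, 0.0263 and 0.0138). With quantile normalization and with ribosomal protein and proteasome centring it was −0.57 each time and not called (adjusted p = 0.158 and 0.220).

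Complex III, the cytochrome bc1 complex, had the most negative median of the 5 complexes, −2.31 over 5 subunits, with no overlap in any. Uqcrfs1, the Rieske iron-sulfur protein that takes electrons from ubiquinol, read 18022, 21743, 17777 and 19552 in the muscles and 1405, 2798, 2475, 2251 and 3941 in the tumours. It had the largest fall of all 46 members, 7.83-fold (log2 fold change −2.97, SE 0.27, adjusted p = 1.4e-05). Uqcrq, a small subunit, read 18923, 21829.6, 20874 and 19783 in the muscles and 2918, 2753, 2118, 2765 and 3979.9 in the tumours, with the smallest adjusted p of the members (log2 fold change −2.83, SE 0.20, adjusted p = 5.2e-06). That fall rests on the brightest probe set of Uqcrq, and with the mean of all its probe sets, the others having a muscle mean under 1000, it was −0.72 (adjusted p = 0.0482). Uqcrc1, a core protein on the matrix side, read 12765, 13394, 16663 and 13596 in the muscles and 2819, 1916, 3131, 2882 and 3680.4 in the tumours (log2 fold change −2.31, SE 0.21, adjusted p = 1.6e-05). The 2 subunits with the smallest falls were those that touch cytochrome c: Cyc1, the cytochrome c1 haem protein, read 19249.8, 25693, 21144 and 20742 in the muscles and 6212, 7086, 5651, 4381 and 5305 in the tumours (log2 fold change −1.93, SE 0.19, adjusted p = 2.8e-05). Uqcrh, the hinge protein, read 33779, 38831, 34932 and 34102 in the muscles and 10838, 11674, 8648, 12999 and 12253 in the tumours (log2 fold change −1.66, SE 0.19, adjusted p = 5e-05).

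Cytochrome c itself, the soluble carrier between complexes III and IV, fell as well. Cycs read 35459, 44062, 37412 and 35487 in the muscles and 5573, 8889, 4652, 4100.4 and 6259.6 in the tumours, or 5895 ± 1868 against 38105 ± 4075 (log2 fold change −2.74, SE 0.24, adjusted p = 1.2e-05). Muscle 2 was the highest muscle and tumour 4 the lowest tumour.

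Complex IV, the cytochrome c oxidase, was measured in 4 common subunits, all lower with no overlap and with a median of −1.90. Cox5a read 54863, 40673, 53048 and 56791 in the muscles and 24279.8, 17929, 9621, 7408 and 8931 in the tumours (log2 fold change −2.05, SE 0.34, adjusted p = 0.000593). Cox5b, another matrix-side subunit, read 49040.3, 41343, 49250.1 and 51375 in the muscles and 22521, 16413, 9556, 13019.7 and 14939.9 in the tumours (log2 fold change −1.69, SE 0.25, adjusted p = 0.000268). In both, tumours 1 and 2 were the highest tumours. Cox6c, a transmembrane subunit, read 44888, 40425, 44583 and 47215 in the muscles and 11079.9, 14953, 12680.2, 14013 and 13396 in the tumours (log2 fold change −1.75, SE 0.18, adjusted p = 2.9e-05), and its highest tumour was within 1.35-fold of its lowest.

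Ndufa4, named for complex I and now placed in complex IV, had the most even muscles and the most uneven tumours of the 46 members, with the highest array 1.04-fold and 6.08-fold above the lowest. It read 25509, 25658, 26095 and 26469 in the muscles and 1419, 2863, 3650.0, 7529 and 8631 in the tumours (log2 fold change −2.71, SE 0.45, adjusted p = 0.000586). The 5 tumours stood at 5.47%, 11%, 14.1%, 29.0% and 33.3% of the muscle mean, so the CC tumours were all below the SSM tumours. These values are from an _at probe set. For the 20 members with a second kind of probe set, the _at sets by median read lower than the others in tumours 1 and 2. In tumours 4 and 5 they read higher. The part of probe design in the order of the tumours for Ndufa4 was not tested. Without Ndufa4 the median of complex IV was −1.75 over 3 subunits, and complex I with Ndufa4 had a median of −1.88 over 26.

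Complex V, the ATP synthase, fell least, with a median of −1.47 over 7 subunits. In the F1 head, the catalytic beta subunit Atp5b read 32633, 38996, 35825 and 34580.1 in the muscles and 10261, 16174, 12782, 12345 and 12927 in the tumours (log2 fold change −1.47, SE 0.19, adjusted p = 0.000116). Atp5c1, the gamma subunit that turns inside the head, read 49034, 46317, 48009 and 45322 in the muscles and 10246, 16884, 9494, 11636 and 14354 in the tumours, the largest fall of the complex (log2 fold change −1.94, SE 0.21, adjusted p = 4.3e-05). With the mean of all probe sets Atp5c1 differed by −0.57 (adjusted p = 0.0342). Atp5d, the delta subunit of the rotor stalk, read 17822, 15709, 19242 and 17328 in the muscles and 14666, 9156, 8870.1, 7624 and 7284 in the tumours, the smallest fall of all 46 members (log2 fold change −0.92, SE 0.23, adjusted p = 0.00623). Atp5b and Atp5c1 were well apart in tumour and muscle, while in Atp5d tumour 1 came close to the lowest muscle.

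In the stator stalk, Atp5j, coupling factor 6, read 29330.1, 25646, 28737 and 29689 in the muscles and 5542, 10106, 6704, 8145 and 9059 in the tumours (log2 fold change −1.87, SE 0.21, adjusted p = 5.2e-05). Atp5o, which joins the stalk to the head, read 23977, 26424, 26152 and 23757 in the muscles and 6442, 7206, 6468, 8265 and 9620.2 in the tumours (log2 fold change −1.74, SE 0.19, adjusted p = 3.9e-05). Both had tumour 1 as the lowest tumour. Atp5h, the d subunit, read 42604, 37515, 39030.0 and 40954 in the muscles and 39676, 25641, 14814, 12866 and 13481 in the tumours (log2 fold change −1.06, SE 0.33, adjusted p = 0.021), and there tumour 1 was the highest and lay among the muscles. The call of Atp5h was lost without muscle 1 (−1.03, adjusted p = 0.0532). The median was −1.41 for the 4 subunits of the head and −1.74 for the 3 of the stalk.

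A score for each complex was taken as the mean over its members of an array's log2 level minus the muscle mean. Over all 46 members the scores of tumours 1 to 5 were −1.77, −1.75, −2.16, −2.0 and −1.79, which is 29.4%, 29.8%, 22.4%, 25% and 28.8% of muscle. On the probe sets used, the tumours thus lay close to one another in the chain as a whole. The kinds of probe set compared below differed in this. Over 20 members, _at sets had a median of −2.33 in tumour 1 and −1.61 in tumour 5. Sets of the same members ending in _a_at, _s_at or _x_at had −1.13 and −1.87. The tumours were less alike within complexes. Complex II scored −2.47, −2.12, −2.19, −1.91 and −1.61 and complex I −1.53, −1.66, −2.17, −2.0 and −1.81, so tumour 1 was the lowest tumour for complex II and the highest for complex I. Most of complex I was read on sets ending in _a_at, _s_at or _x_at. Over the 20 members with both kinds, these read above the _at sets in tumour 1 by a median of 1.21. The part of probe design in this contrast was not tested. Complex III scored −2.47, −2.34, −2.46, −2.39 and −2.02, and complex IV −2.08, −1.94, −2.34, −2.02 and −1.87. Complex V scored −1.37, −1.25, −1.68, −1.59 and −1.50, the least reduced complex in all 5 tumours, and complex III was the most reduced in tumours 2 to 5. Complex V also had the least negative median under all 25 alternative settings, and complex III the most negative under 23 of them. Most of these settings keep the same probe sets. The exceptions were those that change them, where complex IV was the most negative. With the mean of all probe sets, complex IV had −1.97 and complex III −1.93. With _at sets only, complexes IV, II and I had −2.71, −2.27 and −2.03, and complex III −1.93. The differences between complexes were not tested.

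**Figure D2:**
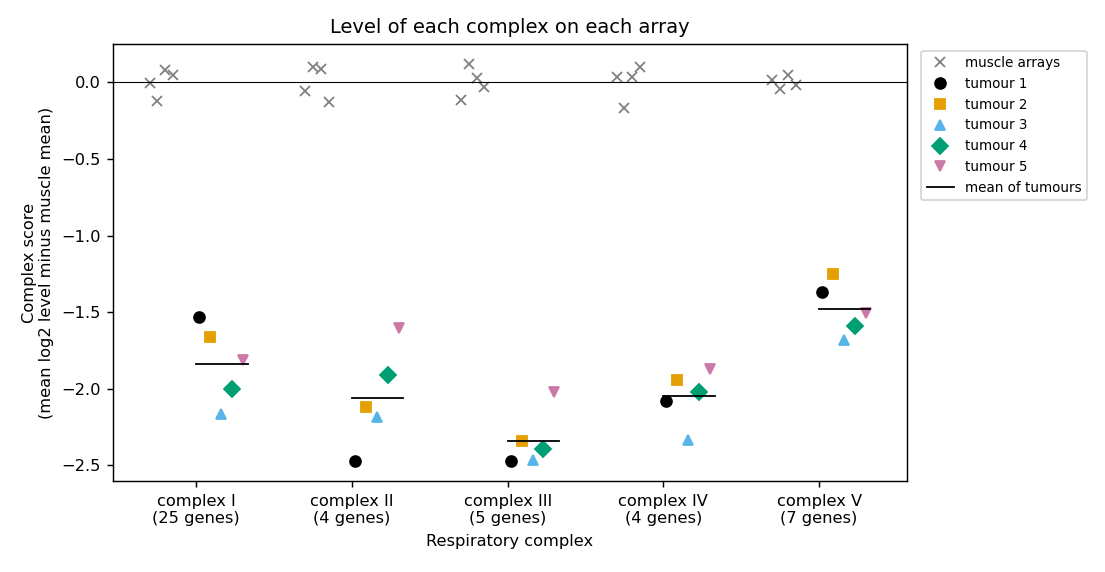
Score of each complex (vertical axis, mean log2 level of its members minus the muscle mean) on the 9 arrays, with 1 point per array. The muscles lie around 0 and the tumours between −2.47 and −1.25, with complex V the highest complex in every tumour.

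The members were even among the muscles and uneven among the tumours. The highest muscle was within 1.5-fold of the lowest for 41 of the 46 members, and the highest tumour was within 1.5-fold of the lowest for 4. The median ratio of highest to lowest was 1.25 for the muscles and 2.01 for the tumours. Within a tumour, the SD over the 46 members of their log2 difference from muscle was 0.93, 0.58, 0.51, 0.54 and 0.43 in tumours 1 to 5, while over all genes tested it was 1.32 to 1.63. Tumour 1 thus had the widest spread, from −4.18 for Ndufa4 to 0.00 for Ndufa2. It held the lowest tumour value for 14 members and the highest for 19. Tumour 3 was the lowest for 17 members and the highest for 0.

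RNA quality also differed between the tumours, with tumour 1 at the far end. The ratio of the 3′ to the 5′ probe sets of Actb, a usual measure of RNA integrity, was 12.7, 2.90, 1.99, 4.54 and 2.04 in tumours 1 to 5 and 1.62 to 1.93 in the muscles. For 20 members the table held both a probe set ending in _at and one ending in _a_at, _s_at or _x_at, each with a muscle mean of at least 1000. The difference of such a pair, the second less the first, had a median on the log2 scale of 1.21, 0.62, 0.06, −0.11 and −0.42 in tumours 1 to 5. In the muscles it was −0.22 to 0.13. Of the 3 members whose groups overlapped, Ndufa5 and Atp5h had such a pair. For Ndufa5 the brighter probe set differed from muscle by −0.18 in tumour 1 and by −2.17 in tumour 5, whereas the other probe set differed by −2.43 and −1.54. For Atp5h the brighter probe set differed by −0.01 in tumour 1 and the other one by −1.14. On those other probe sets both genes were below every muscle in all 5 tumours. The part of RNA quality and probe design in the order of the tumours was not tested. Of the 94 member probe sets, the 81 with a muscle mean of at least 1000 were all lower in the tumours, by −2.97 to −0.82. That limit keeps sets that are bright in muscle and so favours falls. It gives no separate support for the direction. Below the limit, the _at sets of Ndufb8 and Atp5c1 were higher in the tumours (0.14 and 0.81), and neither was called.

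**Figure D3:**
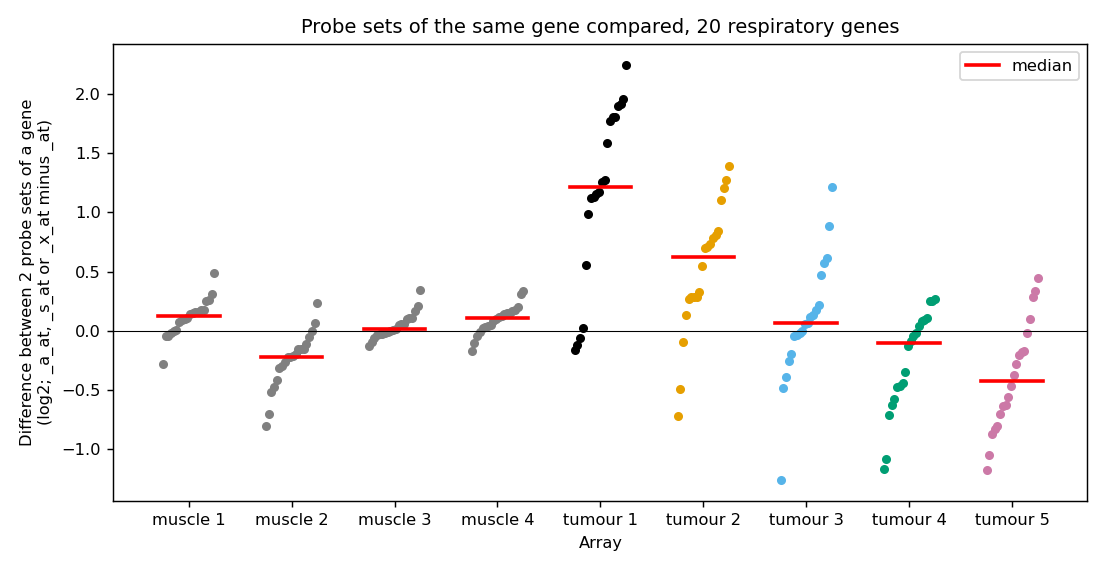
Log2 difference between 2 probe sets of the same gene (vertical axis, the _a_at, _s_at or _x_at set minus the _at set, each relative to muscle) on the 9 arrays, with 1 point for each of 20 members and the median as a red line. The muscles lie around 0, tumour 1 has a median of 1.21 and tumour 5 one of −0.42.

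Markers of other cells moved with the comparison too. The summed level of 22 sarcomere genes of the muscle fibre was 83.8% to 107% of the muscle mean in the muscles, and 18.2%, 7.28%, 2.06%, 0.943% and 23.2% in tumours 1 to 5. In tumour 4, 17 of the 22 were below the floor, Acta1, Ckm and Ttn among them, whereas all 46 respiratory subunits were at or above it. The sarcomere sum thus spanned a wide range between tumours while the respiratory score, on the probe sets used, stayed at 22.4% to 29.8% of muscle. The respiratory percentage comes from a mean of log2 levels (a geometric mean) and the sarcomere percentage from a sum of levels. The 2 are unlike measures. Of the sarcomere genes 20 were lower, against 18.0% of all genes tested, Tpm3 was higher and Myh1 was not called. Tpm3 made up 13559, 9752, 6385, 5048 and 5603 of the sum in tumours 1 to 5. The sums were 157562, 62960, 17810, 8148 and 200822, so in tumour 4 most of the sum was Tpm3. The list's median was −4.58. The part of lost muscle fibres in the fall of the respiratory genes was not tested.

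**Figure D4:**
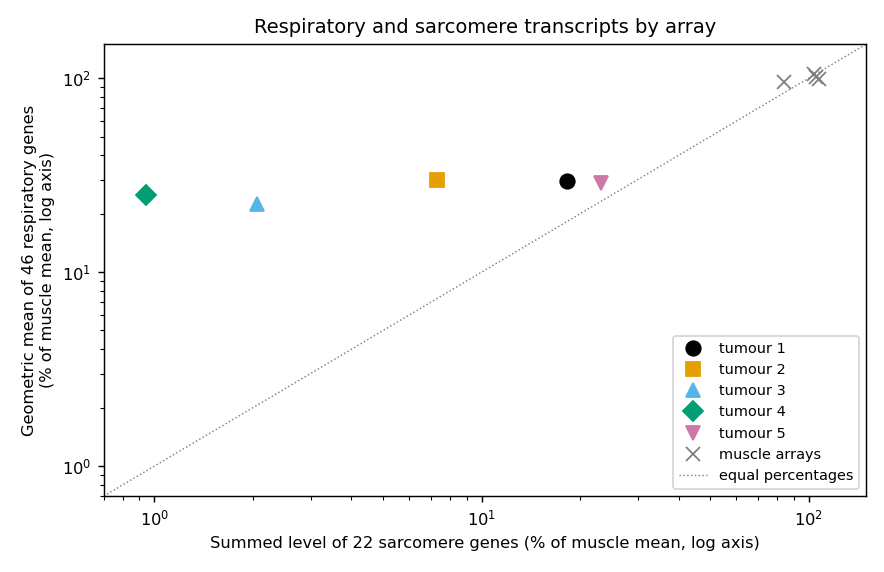
Level of the 46 respiratory subunits (geometric mean) against the summed level of 22 sarcomere genes, both in percent of muscle. Each array is 1 point, on log axes. Tumour 4, with 0.943% of the sarcomere sum of muscle, has 25% of the respiratory level, and tumour 5, with 23.2%, has 28.8%. The sarcomere sum includes Tpm3, which was higher in the tumours.

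Muscle 2, the intercostal sample, held markers of brown fat, a tissue that is itself rich in mitochondria. Ucp1, the uncoupling protein of brown adipocytes, read 18019.9 there and at most 69 in the other muscles, and Cidea, a lipid droplet protein, read 10587 against at most 18. The sum of 6 adipocyte genes was 243% of the muscle mean in muscle 2, 47.4% to 59.1% in the other muscles and 1.28% to 57.0% in the tumours. Tumour 2 also held Ucp1 (563) and Cidea (874) above the floor. Muscle 2 was the lowest muscle for 23 of the respiratory members and the highest for 14, among them Cycs, Uqcrfs1 and Cyc1. The sum of 4 macrophage genes was 103% to 248% of muscle in the tumours, and C1qb made up most of it. C1qb and Cd68 were called higher (1.24 and 1.25), while Cd14 and Cd163 were not called (−0.14 and −0.99). For 9 endothelial genes the sum was 45.4% to 74.4%. All 7 proliferation genes were higher in the tumours, against 30.1% of all genes tested, with a median of 4.06.

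Other mitochondrial genes were counted from lists drawn up beside the members. Of 14 other subunits measured, 12 were lower, against 18.0% of all genes tested, with a median of −1.45. Atp5g1, 1 of 3 genes for the membrane ring of complex V, fell by 3.0 on the log2 scale (2797 ± 821 against 21920.1 ± 1613, SE 0.22, adjusted p = 5.6e-06). Its counterparts Atp5g2 and Atp5g3, which encode the same mature protein, fell as well (−1.46 and −1.45). Ndufab1, the acyl carrier subunit of complex I, fell by 2.36. The mean of all probe sets gave smaller falls for Ndufab1 (−1.60) and Atp5g2 (−0.73). Cox7a2l, a factor in joining complexes III and IV, was not called (−0.15, adjusted p = 0.556).

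Atpif1, the inhibitor of the ATP synthase that limits ATP hydrolysis, was the sole subunit-related gene to rise. It read 2494, 1963, 3280.4 and 2806 in the muscles and 11015, 10147, 7151, 5779.8 and 5417 in the tumours. Every tumour was above every muscle (log2 fold change 1.54, SE 0.26, adjusted p = 0.00063). That value is from an _a_at probe set, a kind that read high in tumours 1 and 2 for the members, and those were the highest tumours here. With the mean of all probe sets Atpif1 was 0.98 (adjusted p = 0.00805).

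Assembly factors, which build the complexes without staying in them, moved in both directions. Of all genes tested, 18.0% were called lower and 30.1% higher. For complex I, 6 of 11 were lower and 1 higher, with a median of −0.74. Ndufaf6 and Ndufaf5 had the largest falls, at −2.68 and −1.74, and Ndufaf7 rose (0.98, adjusted p = 0.0124). For complexes II to V, 15 of 27 were lower and 2 higher, with a median of −0.83. The complex III factors Uqcc2 and Uqcc1 fell, at −1.77 and −1.73. The 2 called higher, Ttc19 (0.82, adjusted p = 0.0192) and the copper chaperone Sco1 (0.59, adjusted p = 0.0498), lost their call when single arrays were left out. Ttc19 turned to −0.31 without tumour 1 and −0.26 without tumour 5, when another probe set took the place of the first, and lost its call without muscle 1 or 3 (adjusted p = 0.0584 and 0.0510). Sco1 lost its call without any 1 of muscles 1, 3 and 4 (adjusted p = 0.0967, 0.129 and 0.0942) or tumours 2 to 5 (adjusted p = 0.0578, 0.0671, 0.118 and 0.0726).

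Of 9 carriers and channels 8 were lower, against 18.0% of all genes tested, with a median of −1.61. The aspartate-glutamate carrier Slc25a12 fell (−2.80), as did the outer-membrane channel Vdac1 (−2.66) and the muscle isoform of the ADP/ATP carrier, Slc25a4 (−1.90). Slc25a5, the isoform of other tissues, was not called (0.81, adjusted p = 0.125). Its muscle 2 value, 9097, was the highest of the muscles, and without muscle 2 it was called higher (1.24, adjusted p = 0.00848). It was also called higher without tumour 1 (1.04, adjusted p = 0.0410), with quantile normalization (1.16, adjusted p = 0.0476), with ribosomal protein and proteasome centring (1.26, adjusted p = 0.0495) and with array weights (1.30, adjusted p = 0.00336). With the mean of all probe sets, Vdac1 was at −1.59 and Slc25a4 at −2.55, and on its _at probe set Slc25a4 was at −3.39.

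The mitochondrial ribosome, which translates the subunits encoded in mitochondrial DNA, had 42 of 70 proteins lower and 1 higher, with a median of −0.73. The shares over all genes tested, for this list and the next, were 18.0% lower and 30.1% higher. Mrpl42 and Mrpl33 fell, at −2.59 and −2.43, and Mrps25 was higher (0.63, adjusted p = 0.0132). Of 20 import and chaperone genes 10 were lower and 1 higher, with a median of −0.51. Chchd3, a scaffold of the cristae junctions, fell (−2.57), and so did the chaperone Hspa9 (−1.56). With the mean of all probe sets the falls were smaller for Mrpl42 (−1.40), Mrpl33 (−1.46), Chchd3 (−0.98) and Hspa9 (−0.78), and all 4 were still called. Tomm20, a receptor of the outer-membrane import pore, was higher (0.72, adjusted p = 0.0317), but lost its call without any single muscle (adjusted p 0.0597 to 0.0784) and without tumour 1, 2 or 3 (0.0550, 0.0594 and 0.0635). These lists depended on the scaling. With the values as deposited, with arrays centred on their median or with quantile normalization, Mrps25, Tomm20, Ttc19 and Sco1 were not called (adjusted p 0.0549 to 0.221). With each array centred on genes for ribosomal proteins and the proteasome, which moved the median of all genes from 0.23 to 0.67, 1027 of 10645 genes were called lower and 4537 higher. The lower calls were then 3 of 11 (3 higher) for complex I assembly, 9 of 27 (2 higher) for the other assembly factors, 21 of 70 (2 higher) for the mitochondrial ribosome and 4 of 20 (3 higher) for import. Of the respiratory subunits 45 of 46 were lower under that centring.

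**Figure D5:**
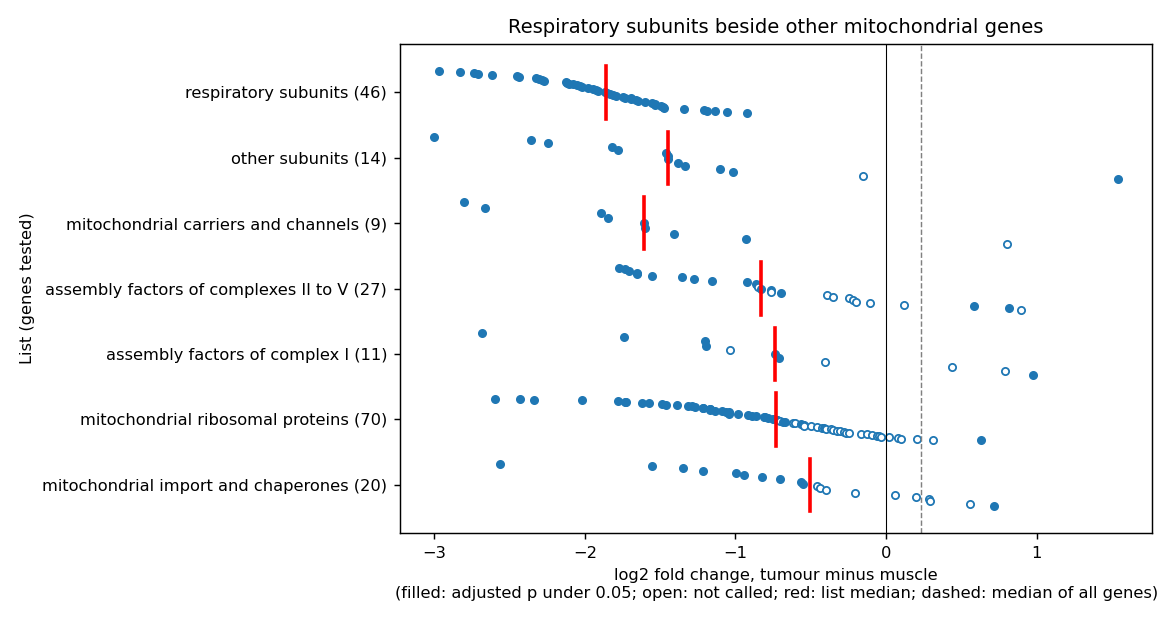
Log2 fold change of tumour over muscle for the 46 respiratory subunits and for the related mitochondrial lists, with 1 point per gene and the median of each list as a bar. The medians run from −1.86 for the subunits to −0.51 for import and chaperones, beside 0.23 for all genes tested.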

How the data were processed

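Total RNA of 5 tumours and 4 skeletal muscles was hybridised to 1 Affymetrix array each. The authors deposited 1 linear intensity per probe set and array, made with MAS5, per the submitters' processing notes; the version, scaling target and background step are not given in the sources used here. The table held 30508 probe sets, and 0 columns of per-sample values were left unused. The 2% trimmed means of the arrays ran from 429.7 to 609.7, so arrays were scaled to a common one (factors 0.909 to 1.29). For arrays, their number limits the precision.

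The 7 control probe sets were left out, and 25581 probe sets with 1 gene symbol in the platform annotation covered 14440 genes. Each gene took its probe set of highest mean. The 10646 genes at or above the 40th percentile of an array on at least 4 arrays were tested. Levels were log2(scaled value + 16), fitted by lmFit and trended eBayes of limma 3.58.1 (R 4.3.3). Two-sided p-values were adjusted by Benjamini-Hochberg over the genes tested. A fold change is thus on that log2 scale. The procedure was tested on simulated data. Ndufa4 was counted with complex IV and cytochrome c on its own.

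Subunits and lists were chosen with earlier results of these data known. Named genes were the 3 called members with the largest and the 2 with the smallest fall in complexes I, III, IV and V, all of complex II, Cycs, Ndufa4, Uqcrfs1 and Atp5b, members not called or higher, and the 2 called genes of each related list with the largest change in each direction. Genes named beyond that (Ndufa5, module members, Atp5g2, Atp5g3, Slc25a4, Slc25a5, Cox7a2l and the cell markers) were added after their values were seen or for their role. Alternatives covered scaling, pseudocount, filter, probe set, the moderation of the variance, array weights, groups of tumours by title and leaving out each array. The groups by title were CC only, SSM only and the CC17 tumours averaged.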

Additional observations from a re-analysis of the deposited data

Results flagged for a closer look

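Each respiratory gene and each complex score was examined for an array far from the others of its group, by the gap to its nearest neighbour over the range of the group. Of 102 groups 8 had such an array. Independent groups would give about 1 in 20, but these share the same arrays and the scores average the same genes. The 8 cannot be weighed against that rate. Muscle 2, the intercostal sample, was the far one in 5. It was the lowest muscle for Ndufs7 (14826, others 20232 to 21113), Ndufc1 (27087, others 40174 to 40912), Ndufb6 (20873, others 31741 to 32893) and Ndufb9 (32585, others 39965 to 40712), and the highest for Ndufb3 (14699.5, others 12562 to 12653). Tumour 1 was the far one in 2. It was the lowest tumour for Ndufa8 (1659.8, others 2846 to 3366) and for Sdhc (1242, others 2333 to 2949). Tumour 5 had the highest complex III score of the tumours, −2.02, with the others from −2.47 to −2.34. The part of the brown fat markers in muscle 2 and of the RNA quality of tumour 1 in these values was not tested.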

How the results depend on the processing

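Over 25 alternatives, 1127 of 1137 values of single members kept their direction and call. With probe sets ending in _at only, Ndufb8 (0.14, adjusted p = 0.757) and Atp5c1 (0.81, adjusted p = 0.0666) turned higher, on probe sets with low muscle signal, 31 of 33 members were lower, complex III had 3 lower of 3 and complex V 4 of 5. The fewer calls there come with fewer genes held. Calls were lost by limma for Ndufa2, Atp5d and Atp5h with quantile normalization (42 lower) and Ndufa2 and Atp5h with CC tumours only (44 lower); the cause was not tested. Sdha lost its call with quantile normalization and with ribosomal protein and proteasome centring (45 lower), where its other probe set also took over, so that scaling and probe set changed together. Quantile normalization moved 20 of 46 members by over 1.5-fold, and the mean of all probe sets 4. The median of all members moved to −2.06 with median centring, −1.34 with quantile normalization and −1.40 with ribosomal protein and proteasome centring. In that order the medians of complexes III, IV and V were −2.51, −1.95 and −1.85, then −2.10, −1.28 and −1.44, then −1.67, −0.73 and −1.01. Under the last pair of settings complex I had −1.36 and −1.40 and complex II −1.70 and −1.59. With the mean of all probe sets, complexes II, III and V had −1.69, −1.93 and −1.29. With _at probe sets only, complexes III and IV had −1.93 and −2.71. Complex II had −1.57 with SSM tumours only, and complex IV −1.72 with CC tumours only. The cause of these shifts was not tested. The higher share of calls over all genes was 62.6%, and 51.8% with median centring or 81.5% with ribosomal protein and proteasome centring. Leaving out each array in turn gave 45 to 46 members lower, 6 to 7 of them in complex V, and medians of −1.95 to −1.84. No paired analysis was possible because the labels link no tumour to a muscle sample.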
